A study of Homo sapiens with 6 samples.

Results

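The genes described here encode the machinery that copies chromosomal DNA: the factors that mark and license origins, the replicative helicase, the polymerases with their sliding clamp and its loader, the enzymes that join Okazaki fragments, and part of the supply of deoxynucleotides and histones. They were chosen by name, as 44 gene symbols, and not by a cut on their values. Earlier results of these data were known when the genes were chosen. Each of the 44 had a row among the 26485 symbols of the count tables, and each of the 44 passed the filter on low counts. RNA was sequenced from AF22, an established human line of neural stem cells derived from induced pluripotent cells, in 6 libraries. The 3 control libraries came from cells labelled shControl, with the genotype WT. The other 3 came from AF22 cells labelled as a knockdown of COMMD3 and of COMMD3-BMI1, a readthrough transcript that joins COMMD3 to its neighbour BMI1. The labels do not name the knockdown reagent, nor the time since it was given. Nothing states that replicates came from separate cultures, so p-values reflect the spread among these 6 libraries alone, and that spread may be technical.

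Replication starts from origins that the origin recognition complex (ORC) binds and that CDC6 and CDT1 load with the MCM helicase while the cell is in G1. In S phase CDC45 and the GINS complex join the MCM hexamer and turn it into an active helicase, polymerase alpha-primase lays down primers, and polymerases epsilon and delta extend them with the help of the PCNA clamp. Many genes of this machinery are known targets of E2F transcription factors, and their transcripts are abundant in cycling cells such as neural stem cells and scarce in cells that have left the cycle.

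The libraries held between 7294687 and 11579849 counts. Below, values of single libraries stand in the order of replicates 1 to 3, and means are given ± SD with n = 3 in each group. COMMD3 checked the labels: its level was 31.7, 29.7 and 27.6 CPM (counts scaled to the library's size) in the control libraries and 12.9, 11.3 and 10.5 CPM in the knockdown libraries (log2 fold change −1.37 with an SE of 0.0996, edgeR adjusted p = 2.34e-12). BMI1 had 110.2 ± 2.41 CPM in the control libraries and 105 ± 1.79 CPM in the knockdown libraries (edgeR adjusted p = 0.206), and COMMD3-BMI1 was listed at 0 in all 6 libraries. All of its annotated exon bases are shared on the same strand with COMMD3 and BMI1, so this 0 sets no limit on its level. The labelled cell type was checked against 10 neural stem cell markers, all of which passed the filter (3 lower, 1 higher), with a summed level of 2800.0 to 2985 CPM in control and 2849 to 2928 CPM in knockdown. Among markers of other cells, the summed level did not overlap between the groups for 10 neuron markers (711.0 to 758.7 CPM in control, 656.5 to 683.5 CPM in knockdown, with 1 of 5 tested genes lower), 5 astrocyte markers (73.8 to 77.7 and 47.2 to 56.1 CPM, 1 of 2 lower), 6 oligodendrocyte lineage markers (184.7 to 192.9 and 157.7 to 165.0 CPM, 2 of 4 lower), 5 pluripotent cell markers (531.3 to 535.5 and 635.1 to 693.2 CPM, 1 of 3 lower and 1 higher), 5 mesenchymal markers (174.7 to 191.5 and 151.2 to 169.4 CPM, 2 of 5 lower and 1 higher) and 5 erythroid and endothelial markers (129.2 to 136.6 and 86.6 to 98.4 CPM, 3 of 3 lower). The neuronal genes ELAVL4, STMN2 and NEUROD1, the astrocyte gene GFAP, the oligodendrocyte gene SOX10, the erythroid gene HBB and the T cell gene CD3E were listed at 0 in all 6 libraries. The summed level of 6 leukocyte markers stayed between 0.209 and 1.03 CPM. Each sum weighs its abundant genes most. Of the pluripotent cell markers, LIN28A was called higher (control mean 303.6 CPM, knockdown mean 456.8 CPM). POU5F1 was called lower (means of 59.08 and 45.69 CPM, in the same order), and DPPA4 was not called. The neuron sum was mostly MAP2, which was not called (535.3 and 497.3 CPM). ELAVL3 was the neuron marker called lower (21.46 and 12.51 CPM). The part of these marker differences in the results below was not tested.

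Transcripts of the replication machinery were lower in knockdown cells, by small amounts that most of the genes shared. Of the 44 genes, 28 fell, 1 rose and 15 did not pass the test (adjusted p under 0.05 by edgeR's quasi-likelihood test, with the Benjamini-Hochberg adjustment made over 13632 tested genes). Over all tested genes 18.1% were called lower and 15.3% higher. The median log2 fold change of the 44 genes was −0.20, which is a level 13.0% below control, beside a median of 0.002 over all tested genes. The fold change was below 0 for 41 of the 44. For 31 of them every knockdown library lay below every control library, against 22.7% of all tested genes. For 1 of the 44 every knockdown library lay above every control library, against 2944 of the 13632 tested genes. A lower level in bulk RNA can come from fewer cells in S phase or from less transcript per cell, and the 2 cannot be told apart here.

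**Figure D1:**
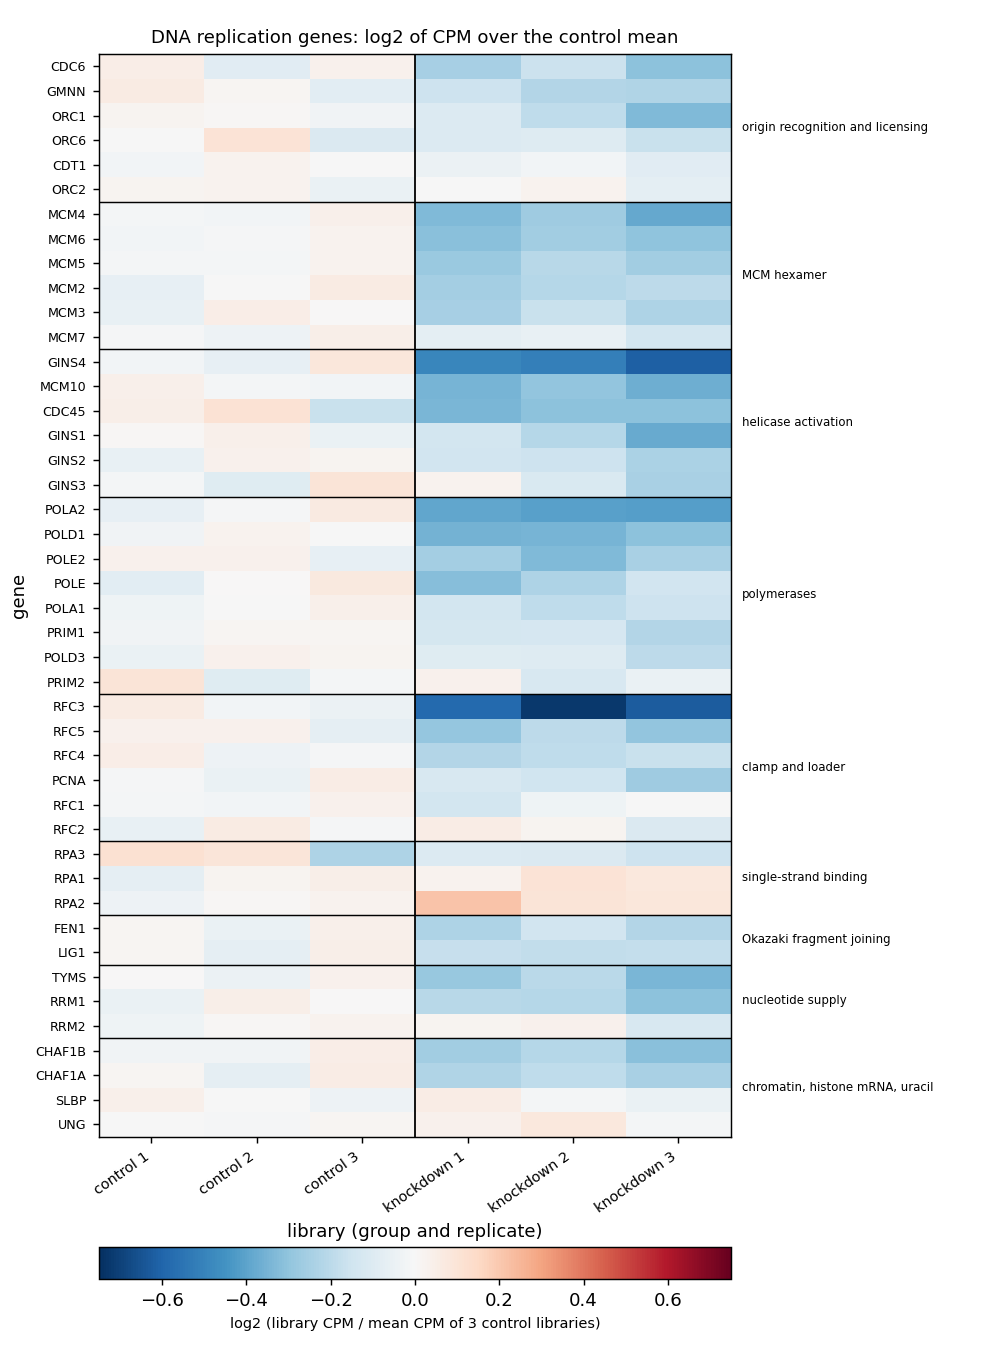
Level of each of the 44 replication genes (rows, grouped by role and ordered by fold change) in each of the 6 libraries (columns), as the log2 of CPM over the mean of the 3 control libraries. The 3 knockdown columns are mostly blue, with RFC3 and GINS4 the darkest rows, while RPA1, RPA2, UNG, SLBP, RRM2 and RFC2 stay pale or turn orange.

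The plot of levels by library shows that the 3 knockdown libraries moved alike. Over the 44 genes, the median log2 ratio to the control mean was −0.17, −0.19 and −0.23 in knockdown replicates 1 to 3 and between −0.010 and 0.020 in the control libraries. The number of genes below their control mean was 36, 38 and 42 in knockdown replicates 1 to 3, and 17 to 26 in the control libraries. The summed level of the 44 genes was 5388, 5416 and 5513 CPM in the control libraries and 4794, 4865 and 4663 CPM in the knockdown libraries, and the groups did not overlap. The falls were modest: the 28 genes called lower had a median fold of 1.18, from −0.16 (POLA1) to −0.65 (RFC3) on the log2 scale, and 1 of them reached 1.5-fold. All 2461 genes called lower in the table had a median fold of 1.22, and 351 of them reached 1.5-fold. Genes with more counts are called more easily, and tested genes with a control level between 63.0 and 158 CPM, which holds the middle of the 44 genes, were called lower in 24.3% of cases and higher in 18.3%.

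**Figure D2:**
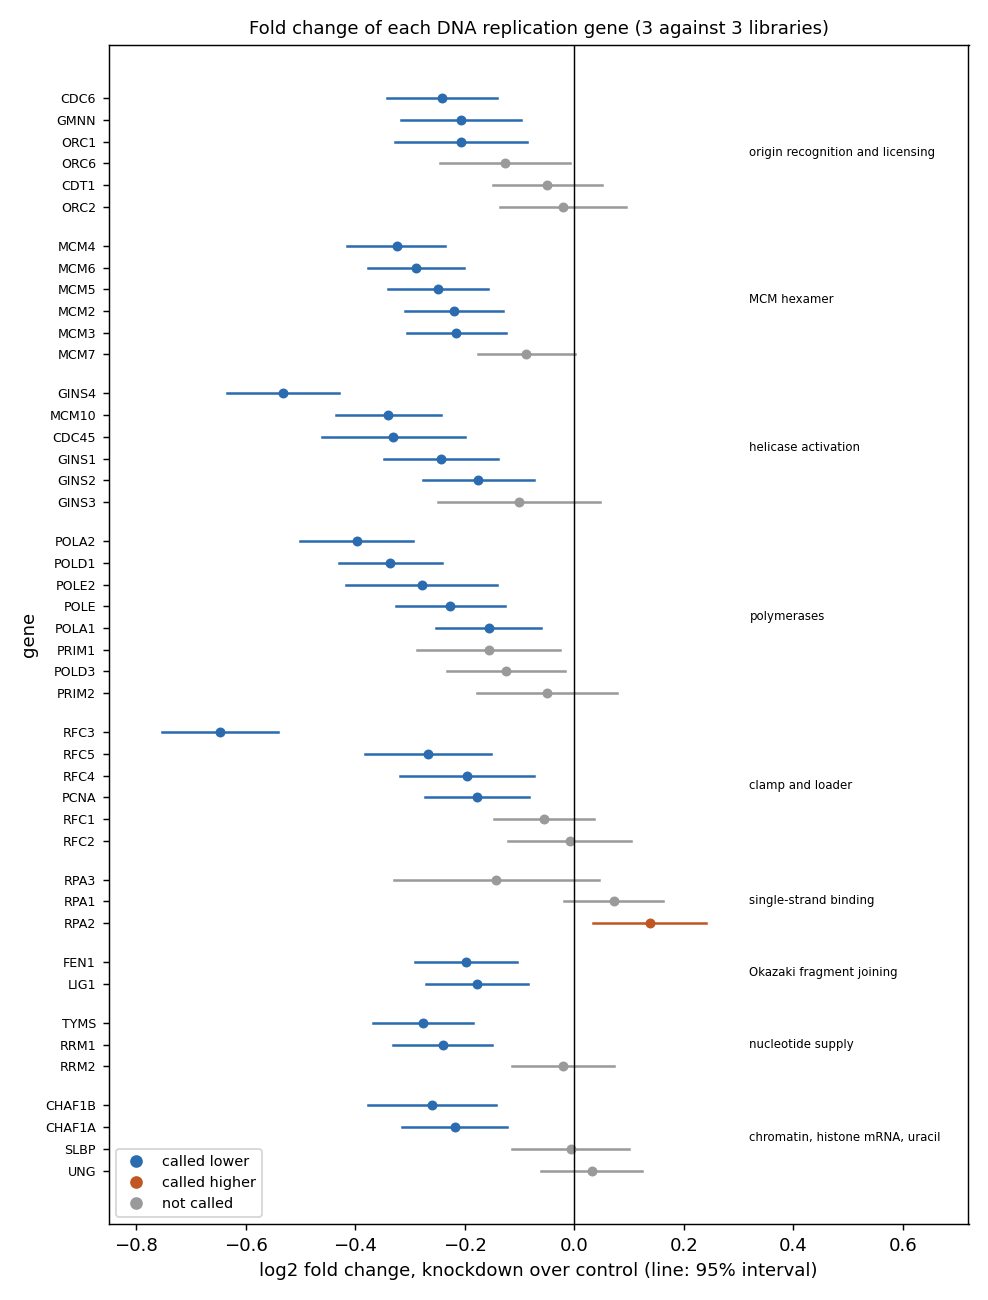
Log2 fold change of each gene, knockdown over control (points), with its 95% interval (lines), grouped by role, from 3 libraries in each group. The 28 genes called lower are blue, the 15 without a call are grey and RPA2, the gene called higher, is orange.

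**Figure D3:**
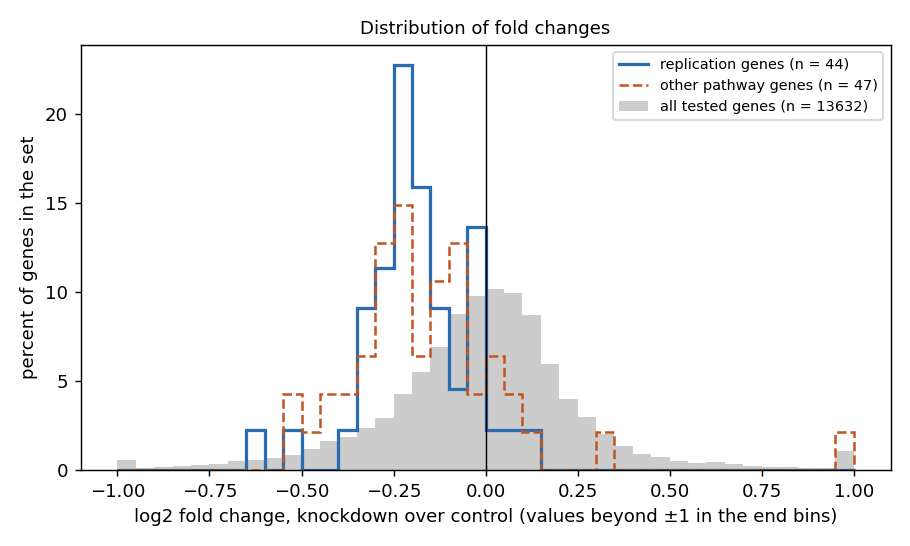
Distribution of log2 fold changes in bins of 0.05, as a percent of the genes of each set, for all 13632 tested genes (grey bars), the 44 replication genes (blue line) and 47 other genes of the pathway (dashed orange line). The grey bars centre on 0, while the blue line peaks between −0.25 and −0.20.

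The promoters were searched for words that E2F factors are known to bind, chosen after the fold changes were seen. RefSeq promoters (GRCh38.p14, 250 bases before to 50 bases after the annotated start) were matched for 38 of the 44 genes, all but MCM4, MCM5, GINS4, POLD3, RPA2 and RPA3. Any of the 8-base words TTTCCCGC, TTTCGCGC, TTTGCCGC and TTTGGCGC, on either strand, was present in 17 of the 38 (44.7%), in 5.48% of 10130 promoters of tested genes and in 3.33% of all 27305 promoters. Among genes called lower the words were in 14 of 25 promoters, and among those not called lower in 3 of 13. Of 1879 promoters of all tested genes called lower, 6.87% held a word. The box CCAAT, on either strand, was in 22 of the 38 (57.9%), against 36.7% of promoters of tested genes. By call it was in 14 of 25 promoters of genes called lower and in 8 of 13 of those not called lower. Neither split by call was tested. The 38 promoters had a median GC content of 65.5%, beside 65.3% over tested genes.

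Of 23 such words in the 17 promoters, 19 started upstream of the annotated start, 13 of them within the 100 bases before it, and 4 started downstream, with overlapping words counted separately. The promoters of 4 genes are shown: RFC3, POLA2 and MCM6 because they were called lower and hold a word, and MCM7 because it holds the words and its fall did not pass the test. Capitals mark the words, and the first 250 bases lie before the annotated start. RFC3 lies at chr13:33817899-33818198, plus strand; POLA2 at chr11:65261712-65262011, plus strand; MCM6 at chr2:135876394-135876693, minus strand; and MCM7 at chr7:100101348-100101647, minus strand. In MCM6 each capital block is a TTTGGCGC overlapped by a TTTCGCGC on the other strand.

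RFC3: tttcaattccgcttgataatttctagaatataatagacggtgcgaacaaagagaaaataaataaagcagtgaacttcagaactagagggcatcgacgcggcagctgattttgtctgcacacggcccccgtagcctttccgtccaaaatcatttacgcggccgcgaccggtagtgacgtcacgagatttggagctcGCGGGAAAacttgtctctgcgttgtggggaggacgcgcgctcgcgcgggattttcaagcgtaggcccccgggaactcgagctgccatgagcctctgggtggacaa

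POLA2: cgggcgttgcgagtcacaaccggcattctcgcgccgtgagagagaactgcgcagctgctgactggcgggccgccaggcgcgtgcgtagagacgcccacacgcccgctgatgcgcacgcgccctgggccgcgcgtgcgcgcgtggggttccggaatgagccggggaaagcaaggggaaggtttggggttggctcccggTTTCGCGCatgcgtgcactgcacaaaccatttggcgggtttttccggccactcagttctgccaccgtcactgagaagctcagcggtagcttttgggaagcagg

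MCM6: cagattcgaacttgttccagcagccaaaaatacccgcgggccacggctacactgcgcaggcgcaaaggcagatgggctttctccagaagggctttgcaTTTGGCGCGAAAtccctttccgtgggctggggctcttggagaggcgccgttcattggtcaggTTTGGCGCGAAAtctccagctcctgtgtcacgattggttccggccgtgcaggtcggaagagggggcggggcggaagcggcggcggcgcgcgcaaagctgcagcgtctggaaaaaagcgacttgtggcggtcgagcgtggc

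MCM7: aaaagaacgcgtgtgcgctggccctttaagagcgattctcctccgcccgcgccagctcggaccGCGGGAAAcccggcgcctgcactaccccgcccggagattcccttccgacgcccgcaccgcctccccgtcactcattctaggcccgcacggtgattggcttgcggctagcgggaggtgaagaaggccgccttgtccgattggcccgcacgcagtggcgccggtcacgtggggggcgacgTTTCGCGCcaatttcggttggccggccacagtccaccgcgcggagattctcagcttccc

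A word in a window is a match of letters, and nothing was measured here on the binding of any factor.

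Among the factors that recognise and license origins, 3 of 6 fell and 3 did not pass. CDC6, the ATPase that brings MCM to ORC, had 125, 114 and 124 CPM in the control libraries and 102, 108 and 97.7 CPM in the knockdown libraries (log2 fold change −0.24 with an SE of 0.0492, edgeR adjusted p = 0.000296). The highest knockdown library lay below the lowest control library. ORC1, the subunit of ORC whose level is known to follow the cell cycle, fell from 63.2 ± 1.11 to 54.9 ± 4.35 CPM (log2 fold change −0.21 with an SE of 0.0589, edgeR adjusted p = 0.00724). Its call rested on knockdown replicate 3, the lowest library at 50.3 CPM: without it the adjusted p was 0.0698, and DESeq2 gave 0.0668, within a range of 0.00198 to 0.0698 over 15 alternative analyses. GMNN, which encodes geminin, the inhibitor that binds CDT1 and stops relicensing, fell from 70.7 ± 3.42 to 61.5 ± 1.58 CPM (log2 fold change −0.21 with an SE of 0.0537, edgeR adjusted p = 0.00339). CDT1 itself had 77.9, 80.6 and 78.7 CPM in the control libraries and 76.7, 77.98 and 74.5 CPM in knockdown, with overlapping groups (log2 fold change −0.050, 95% interval −0.15 to 0.050). ORC2, a subunit of the ORC core, had 56.7, 57.1 and 54.2 CPM in the control libraries and 56.02, 57.03 and 53.2 CPM in the knockdown libraries, and also overlapped (log2 fold change −0.021, 95% interval −0.14 to 0.095). The subunit ORC6 had 61.6, 66.4 and 57.3 CPM in the control libraries and 57.6, 57.7 and 55.03 CPM in the knockdown libraries. It did not pass (log2 fold change −0.13, 95% interval −0.24 to −0.008, edgeR adjusted p = 0.0919), and passed without control replicate 3 (adjusted p = 0.0422) and with the trend on GC content and length removed (adjusted p = 0.0185).

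The MCM hexamer, the motor of the replicative helicase, was lower in 5 of its 6 subunits. MCM4 had the largest fall, with 342, 340.0 and 354 CPM in the control libraries and 275, 287 and 265 CPM in the knockdown libraries (log2 fold change −0.32 with an SE of 0.0438, edgeR adjusted p = 8.28e-07). The gap between the lowest control and the highest knockdown library was wider than the range within either group. MCM6 fell from 210.0 ± 3.34 to 172 ± 3.47 CPM, or by 18.2%. MCM5, MCM2 and MCM3 fell by 15.8%, 14.1% and 13.8%, with edgeR adjusted p of 5.9e-05, 0.000251 and 0.000312. MCM7 did not pass: it had 333, 326 and 344 CPM in the control libraries and 318, 322 and 304 CPM in the knockdown libraries (log2 fold change −0.087, 95% interval −0.17 to 0.002, edgeR adjusted p = 0.124). Its 3 knockdown libraries still lay below its 3 control libraries, as did those of the other 5 subunits.

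Genes that turn the loaded hexamer into a moving helicase fell in 5 of 6 cases, at a median of −0.29 on the log2 scale. GINS4, a subunit of the GINS complex, had the second largest fall of the 44 genes. It had 113, 109.5 and 121 CPM in the control libraries and 81.7, 80.2 and 74.98 CPM in the knockdown libraries, a fall of 30.9% (log2 fold change −0.53 with an SE of 0.0499, edgeR adjusted p = 7.57e-10). In GENCODE v29 (GRCh38), 23.6% of its exon bases are also covered by genes annotated on the other strand. MCM10, which activates the assembled helicase, fell from 103 ± 2.35 to 81.3 ± 2.08 CPM (log2 fold change −0.34 with an SE of 0.0468, edgeR adjusted p = 1.18e-06), and CDC45, the helicase cofactor, from 57.1 ± 5.53 to 45.7 ± 0.703 CPM (log2 fold change −0.33 with an SE of 0.0639, edgeR adjusted p = 0.000161). For both genes the knockdown libraries were tight and clear of the controls. GINS1 fell by 15.6% and GINS2 by 11.4%, and the call of GINS2 was lost by DESeq2 (adjusted p = 0.0654). GINS3 did not pass and its groups overlapped, with 40.9, 38.7 and 44.1 CPM in the control libraries and 42.1, 38.1 and 34.9 CPM in the knockdown libraries (log2 fold change −0.10, 95% interval −0.25 to 0.048).

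Of 8 polymerase and primase genes, 5 fell and 3 did not pass. POLA2, the accessory B subunit of polymerase alpha, fell most, from 83.4, 86.3 and 91.1 CPM in the control libraries to 66.4, 65.4 and 65.3 CPM in the knockdown libraries (log2 fold change −0.40 with an SE of 0.0505, edgeR adjusted p = 2.99e-07). Its 3 knockdown libraries lay close together, below all controls. A gene on the same strand, AP000944.2, covers 35.1% of its exon bases. POLA1, the catalytic subunit of the same enzyme, fell by 10.3% (log2 fold change −0.16 with an SE of 0.0466, edgeR adjusted p = 0.01), a call that DESeq2 did not make (adjusted p = 0.0797) and that the fit lacking knockdown replicate 2 did not make either (adjusted p = 0.0535). The primase subunit PRIM1 had 42.8, 44.1 and 44.00 CPM in the control libraries and 39.9, 40.04 and 37.4 CPM in the knockdown libraries. Its groups did not overlap, but it did not pass (log2 fold change −0.16, 95% interval −0.29 to −0.026), and it passed with the GC and length trend removed (adjusted p = 0.0156). AC117378.1 and NACA on the same strand cover 16.2% of the exon bases of PRIM1, and HSD17B6 on the other strand covers 5.4%. PRIM2, the other primase subunit, had 54.6, 48.1 and 50.7 CPM in the control libraries and 52.2, 47.1 and 49.5 CPM in the knockdown libraries, with overlap (log2 fold change −0.050, 95% interval −0.18 to 0.078). POLD1, the catalytic subunit of polymerase delta, fell from 108 ± 1.94 to 85.3 ± 1.64 CPM, or by 20.8%. Its partner POLD3 had 68.98, 73.02 and 72.4 CPM in the control libraries and 67.01, 66.8 and 62.4 CPM in the knockdown libraries. It did not pass (log2 fold change −0.12, 95% interval −0.23 to −0.017), although its groups did not overlap. In polymerase epsilon, the catalytic subunit POLE fell by 14.5% and the accessory subunit POLE2 by 17.6% (edgeR adjusted p = 0.000558 and 0.00196).

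The sliding clamp and its loader held both the largest fall of the 44 genes and the smallest difference in size but for SLBP. RFC3 encodes a small subunit of the clamp loader replication factor C, and GENCODE v29 (GRCh38) places it on the plus strand of chromosome 13, from 33818049 to 33966558. It had 97.04, 91.4 and 90.1 CPM in the control libraries and 61.9, 56.2 and 60.3 CPM in the knockdown libraries, a fall of 36.1% (log2 fold change −0.65 with an SE of 0.0523, edgeR adjusted p = 2.71e-11). No knockdown library came near the lowest control library. RFC5 and RFC4, other small subunits, fell by 16.9% and 12.7% (edgeR adjusted p = 0.000461 and 0.0114). The call of RFC4 was lost by DESeq2 (adjusted p = 0.104) and without control replicate 1 (adjusted p = 0.0728). RFC2, also a small subunit, had 66.8, 72.6 and 68.9 CPM in the control libraries and 72.04, 70.4 and 64.4 CPM in knockdown, with overlapping groups (log2 fold change −0.008, 95% interval −0.12 to 0.10). The large subunit RFC1 had 148, 147 and 153 CPM in the control libraries and 136, 146 and 149 CPM in the knockdown libraries, and overlapped too (log2 fold change −0.055, 95% interval −0.15 to 0.037). PCNA, the clamp that holds polymerases on DNA, fell from 202 ± 7.37 to 178 ± 9.52 CPM (log2 fold change −0.18 with an SE of 0.0461, edgeR adjusted p = 0.00344). Its counts may be shared with 3 annotated pseudogenes. Pseudogenes named after RFC3, RFC5, RPA2, FEN1, TYMS, RRM2 and UNG are also annotated and may share reads in the same way.

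Replication protein A, which coats the single strands that the helicase exposes, had no subunit called lower and 1 called higher. RPA2 was the gene of the 44 that rose, from 74.7, 76.9 and 78.04 CPM in the control libraries to 88.9, 81.9 and 81.05 CPM in the knockdown libraries (log2 fold change 0.14 with an SE of 0.0504, edgeR adjusted p = 0.0347). The groups did not overlap, with knockdown replicate 1 the highest. This call was lost without control replicate 1 or 2 (adjusted p = 0.132 and 0.0611), without knockdown replicate 1 or 2 (0.208 and 0.0517), by DESeq2 (0.173) and with the GC and length trend removed (0.0974), in a range of 0.0155 to 0.208 over 15 alternatives. RPA1, the large subunit, had 203, 215 and 219 CPM in the control libraries and 216, 228 and 224 CPM in knockdown, with overlap (log2 fold change 0.072, 95% interval −0.019 to 0.16). RPA3, the small subunit, had 26.6, 26.2 and 20.9 CPM in the control libraries and 22.8, 22.8 and 22.01 CPM in the knockdown libraries, which overlapped (log2 fold change −0.14, 95% interval −0.33 to 0.045).

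Both enzymes that finish Okazaki fragments fell. FEN1, the flap nuclease, had 128, 122 and 130.3 CPM in the control libraries and 108, 115 and 109 CPM in the knockdown libraries (log2 fold change −0.20 with an SE of 0.0454, edgeR adjusted p = 0.00108). LIG1, the ligase that seals the nick, fell from 121 ± 4.88 to 107 ± 0.54 CPM (log2 fold change −0.18 with an SE of 0.0454, edgeR adjusted p = 0.00293). Neither gene's groups overlapped.

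Of the nucleotide supply genes, TYMS and RRM1 fell and RRM2 did not pass. TYMS, thymidylate synthase, had 283, 274 and 288 CPM in the control libraries and 231, 244 and 222 CPM in the knockdown libraries (log2 fold change −0.28 with an SE of 0.0448, edgeR adjusted p = 1.43e-05). Genes on the other strand, ENOSF1 and TYMSOS, cover 46.6% of its exon bases; they had 16.9 ± 2.8 and 8.16 ± 2.0 CPM in control and were not called. RRM1, the large subunit of ribonucleotide reductase, fell from 251 ± 8.28 to 213 ± 7.98 CPM (log2 fold change −0.24 with an SE of 0.0444, edgeR adjusted p = 8.83e-05). RRM2, its small subunit and the one known to vary with the cell cycle, had 229.5, 237 and 239 CPM in the control libraries and 238, 240.1 and 217 CPM in the knockdown libraries (log2 fold change −0.020, 95% interval −0.11 to 0.073). Its groups overlapped. A gene on the same strand, AC007240.1, covers 20.2% of its exon bases, and 3 pseudogenes of RRM2 are annotated, which may share its reads.

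The last group couples replication to chromatin and to repair. CHAF1A, the large subunit of the chromatin assembly factor that places histones behind the fork, had 108, 102 and 112 CPM in the control libraries and 91.9, 94.2 and 90.8 CPM in the knockdown libraries (log2 fold change −0.22 with an SE of 0.0469, edgeR adjusted p = 0.000528). CHAF1B, its partner, fell from 58.5 ± 1.68 to 48.7 ± 1.7 CPM, and neither pair of groups overlapped. SLBP, which binds the stem-loop of histone mRNAs, had 67.9 ± 1.81 CPM in the control libraries and 67.8 ± 2.42 CPM in the knockdown libraries (log2 fold change −0.006, 95% interval −0.11 to 0.10). UNG, the glycosylase that removes uracil from DNA, had 111 ± 0.911 CPM in the control libraries and 114 ± 3.79 CPM in the knockdown libraries (log2 fold change 0.032, 95% interval −0.060 to 0.12). Both overlapped between the groups.

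Partners in a complex or step could differ in their call, and 5 pairs chosen after their values were seen are given as ratios of CPM, with no test. Each ratio is not per length and is compared between libraries only. The ratio of RFC2 to RFC3 was 0.689, 0.794 and 0.765 in the control libraries and 1.16, 1.25 and 1.07 in the knockdown libraries. The ratio of RRM2 to RRM1 was 0.945, 0.914 and 0.948 in control and 1.10, 1.11 and 1.06 in knockdown. That of MCM7 to MCM4 was 0.974, 0.959 and 0.972 in control and 1.16, 1.12 and 1.15 in knockdown. For these 3 pairs, and for GINS3 to GINS4 and CDT1 to GMNN, every knockdown library had a higher ratio than every control library. Each pair set a gene without a call over a gene called lower, so a higher ratio in knockdown followed from the choice of pairs. For CDT1 to GMNN the gap was thin, with 1.06, 1.13 and 1.18 in control and 1.21, 1.28 and 1.23 in knockdown. The log2 difference of the ratio ranged from 0.15 (CDT1 to GMNN) to 0.63 (RFC2 to RFC3).

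**Figure D4:**
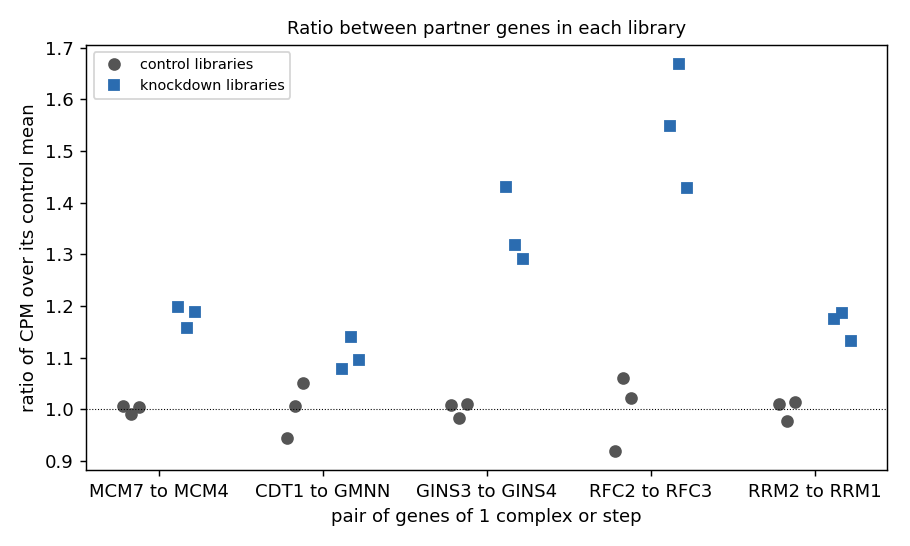
Ratio of the CPM of 5 pairs of genes in each library (vertical axis, divided by the mean of the control ratios), for 3 control libraries (grey circles) and 3 knockdown libraries (blue squares). The pairs were chosen after their values were seen, each with a gene without a call over a gene called lower. The squares lie above the circles for each pair, most for RFC2 to RFC3.

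Levels were compared between genes as CPM per kilobase of the principal GENCODE transcript. In control the highest was TYMS at 169 ± 4.52, then PCNA at 149 ± 5.43, MCM7 at 113 ± 3.05, MCM4 at 82.5 ± 1.79 and RRM1 at 81.7 ± 2.69 CPM per kilobase. MCM4 and RRM1 did not differ by more than their spread. The lowest were RPA3 at 12.2 ± 1.58, CHAF1B at 13.00 ± 0.374 and ORC2 at 13.00 ± 0.365 CPM per kilobase, which overlapped. Within the hexamer the control levels ran from MCM7 through MCM4, MCM3 at 72.2 ± 2.61, MCM2 at 63.4 ± 2.69 and MCM6 at 56.2 ± 0.895 to MCM5 at 36.7 ± 0.64 CPM per kilobase, and in knockdown from 106 ± 3.23 for MCM7 to 30.9 ± 0.829 for MCM5. Among the small subunits of the clamp loader, RFC2 (41.00 ± 1.71), RFC3 (38.7 ± 1.53), RFC5 (37.8 ± 1.48) and RFC4 (35.5 ± 1.14) were close to each other in control. In knockdown RFC3 was the lowest of these, at 24.8 ± 1.22 CPM per kilobase, beside 40.7 ± 2.38 for RFC2, 31.5 ± 1.25 for RFC5 and 31.1 ± 0.548 for RFC4.

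The 47 other genes of the pathway are given by their counts: 27 fell, 2 rose and 18 missed the threshold, and their median log2 fold change was −0.20. Of 12 genes of initiation and its kinases, 6 fell and 6 did not pass. CDC7, the kinase that triggers origin firing, had 112, 111 and 109.6 CPM in the control libraries and 77.5, 79.1 and 76.3 CPM in the knockdown libraries (log2 fold change −0.52 with an SE of 0.046, edgeR adjusted p = 2.7e-10). TICRR (treslin) and RECQL4, both needed to fire origins, fell by 22.3% and 18.3%. Among 20 partners of the fork and the polymerases, 15 fell, 1 rose and 4 did not pass. DTL, which targets CDT1 for destruction through PCNA, fell from 151 ± 2.76 to 106 ± 1.56 CPM (log2 fold change −0.50 with an SE of 0.0438, edgeR adjusted p = 1.6e-10). RNASEH2C, a subunit of the nuclease that removes RNA from DNA, fell by 27.8% and WDHD1, which ties polymerase alpha to the helicase, by 22.6%. Exons of KAT5 on the other strand cover 28.2% of the exon bases of RNASEH2C. POLE4, a small subunit of polymerase epsilon, rose by 24.3% (this gene was picked out once its values were known). The subunits CHTF18, DSCC1 and CHTF8 of an alternative clamp loader, which shares RFC2 to RFC5, and the clamp unloader ATAD5 also fell, with log2 fold changes from −0.20 (CHTF18) to −0.41 (ATAD5), and were picked out in the same way.

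Of 10 other nucleotide genes, 5 fell, 1 rose and 4 did not pass. The gene that rose was SAMHD1, the enzyme that degrades deoxynucleotides and a known interferon-inducible gene, from 8.72, 8.23 and 6.87 CPM in the control libraries to 50.9, 38.4 and 51.3 CPM in the knockdown libraries, or 5.83-fold (log2 fold change 2.54 with an SE of 0.115, edgeR adjusted p = 1.04e-17). All knockdown libraries stood far above all control libraries. RRM2B, a small subunit of ribonucleotide reductase used outside S phase, fell from 147 ± 7.27 to 124 ± 0.87 CPM. Of 5 histone chaperones, ASF1B fell by 13.7% and 4 did not pass, among them NASP (log2 fold change −0.067, 95% interval −0.15 to 0.022) and HAT1 (log2 fold change −0.054, 95% interval −0.15 to 0.041).

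Several replication genes share a start region with a gene on the other strand. Of the 44, 14 (31.8%) have a protein-coding gene that starts on the opposite strand within 1000 bases of their own start in GENCODE v29, against 13% of all protein-coding genes. Of the 11 such partners that were tested, 4 were called lower, 1 higher and 6 were not called. Over all tested genes 18.1% were called lower and 15.3% higher, and with so few partners no difference from these shares was tested. PRKDC, a DNA repair kinase gene that starts 2 bases from MCM4, fell from 629.8 ± 38.4 to 500.2 ± 27.1 CPM (log2 fold change −0.33, edgeR adjusted p = 3.63e-06), close to MCM4 at −0.32. VPS35, which starts 125 bases from ORC6, fell by 0.40 on the log2 scale (edgeR adjusted p = 6.62e-09), beside −0.13 for ORC6. TPRA1, whose start region overlaps that of MCM2, rose from 38.6 ± 1.24 to 46.1 ± 1.16 CPM (edgeR adjusted p = 0.00197), opposite in sign to MCM2 at −0.22. CDS2 beside PCNA, PRPF38A beside ORC1, PXMP2 beside POLE and TMEM258 beside FEN1 were not called, with log2 fold changes between −0.059 (PXMP2) and 0.040 (TMEM258). HSD17B6 beside PRIM1 (−0.589) and LIPT2 beside POLD3 (0.355) were not called either, at control levels of 2.489 and 4.585 CPM. AP4M1 beside MCM7 and SMYD4 beside RPA1 were called lower, both at −0.217 (edgeR adjusted p = 0.0343 and 0.0102). MCM7 (−0.087) and RPA1 (0.072) themselves were not called. Of 5 further genes in the count tables whose exons overlap those of a replication gene on the other strand, 1 fell, 2 rose and 2 were not called: GSE1 beside GINS2 fell from 51.5 ± 1.22 to 40.8 ± 2.28 CPM, EIF4A2 beside RFC4 rose from 279 ± 8.73 to 323 ± 10.1 CPM, and UBXN6 beside CHAF1A rose from 56.0 ± 0.627 to 63.9 ± 0.192 CPM. WSB2 beside RFC5 (log2 fold change −0.035, edgeR adjusted p = 0.582) and UMAD1 beside RPA3 (−0.16, edgeR adjusted p = 0.249) were not called. Where genes overlap, as TPRA1 does with part of the 23.6% of MCM2 exon bases covered on the other strand, reads of the 2 strands may not have been told apart, because no source used here gives the strand setting of the counting.

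The 7-base word TCATCCA, singled out in an earlier look at 3′ UTRs of these data, was checked in the 44 genes. It was in the longest annotated 3′ UTR of 3 of them (6.82%), RFC3, GINS2 and ORC2, and in 12.0% of 12056 tested genes. The RFC3 site is shown because this gene had the largest fall, with the word in capitals in its 3′ UTR:

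RFC3: attgagatTCATCCAtattgttg

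The 3 genes with the word had log2 fold changes of −0.65 (RFC3), −0.17 (GINS2) and −0.021 (ORC2). Of the 41 genes without it, 26 were called lower, and the median log2 fold change of all 41 was −0.21. Over tested genes, 38.7% of 1447 with the word and 16.0% of 10609 without it were called lower. The word was singled out in these same data, so this difference is no test of it. The length of the 3′ UTR was not taken into account. The word was also in the 3′ UTRs of CDC7, CHTF8 and ORC5 among the other pathway genes.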

How the data were processed

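Per the labels' protocols, 700 ng of total RNA from each of 6 AF22 samples, 3 control and 3 knockdown by their titles, went into directional libraries. Trimming and alignment tools listed in the submitters' processing notes are STAR 2.7.10a, Trim Galore 0.6.6 and bedtools, with hg38 as build. How reads were counted, and with which strand setting, is not given in the sources used here. For each library the authors deposited 1 table of raw read counts per gene symbol. Counts were filtered with filterByExpr (13632 genes, 99.9% of each library's counts), scaled by TMM and compared with the quasi-likelihood test of edgeR 4.0.16 (R 4.3.3) with no covariate. Adjusted p-values (Benjamini-Hochberg) are over all tested genes. The standard error is the size of the log2 fold change over the square root of F, and intervals are 95%. CPM use TMM-adjusted library sizes. For a gene that shares no exon bases with another, a count of 0 leaves room for a level of 0.259 to 0.420 CPM, by library (3 counts, counting error only).

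Alternatives were RLE, upper-quartile and library-total scaling, no filter, 1 CPM in 3 libraries, DESeq2 1.42.0, limma-voom (3.58.1), the replicate number as a block, each library left out, an adjusted p under 0.01, and removal of each library's loess trend (span 0.5) on transcript length and GC content. The genes, lists, tests and alternatives were chosen with earlier results of these data known. Each of the 44 genes is named; values in every library are given for the gene of smallest p in each role group, the 2 largest falls and rises, and uncalled members of complexes; other pathway genes are named by the 3 of smallest p in a list, except that some genes of the lists are not reported here. Pairs of replicates differed by a chi-square of 1.23 to 1.99 per degree of freedom, which is more than counting error alone, and each library counted once. This value cannot tell whether the libraries came from separate cultures. Of the symbols, 90.2% were found in GENCODE v29, used for positions. Promoter words were chosen after the fold changes were seen. Python 3.11.15, pandas 2.3.3 and Matplotlib 3.10.9 made tables and figures.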

Additional observations from a re-analysis of the deposited data

How the results depend on the processing

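Of the 28 genes called lower, 24 kept their call and direction in all 15 alternatives that refit the data; the other 4 (ORC1, GINS2, POLA1 and RFC4) kept their direction. The number called lower was 24 by DESeq2, 26 at an adjusted p under 0.01 and 30 both with the replicate block and with the GC and length trend removed, and 27 to 29 with 1 library left out. The number called higher was 0 by DESeq2, at an adjusted p under 0.01 and with the trend removed, and 0 to 1 with 1 library left out. Over all genes, DESeq2 called 1100 higher and 1643 lower, and an adjusted p under 0.01 gave 1224 higher and 1719 lower, against 2084 and 2461. Upper-quartile factors gave 2298 higher and 2328 lower and library totals 2505 higher and 2188 lower, so which direction held more calls over all genes turned with library totals, while the 44 genes kept 28 lower and 1 higher under both. The median of the 44 genes stayed between −0.22 and −0.18 over the settings, and the median of all tested genes was at most 0.022 under any scaling.

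Among uncalled genes near 0, the sign turned without a call. With library totals as the scale the log2 fold change was 0.000 (ORC2), 0.012 (RFC2), 0.001 (RRM2) and 0.014 (SLBP). With upper-quartile factors it was 0.002 (RFC2) and 0.004 (SLBP). Without knockdown replicate 3 it was 0.012 (ORC2), 0.045 (RFC2), 0.031 (RRM2) and 0.020 (SLBP), without control replicate 1 it was 0.011 (PRIM2) and 0.016 (SLBP), and without control replicate 2 it was 0.028 (RFC2). The lowest values with 1 library left out were −0.041 (ORC2), −0.091 (PRIM2), −0.041 (RFC2), −0.046 (RRM2) and −0.032 (SLBP). The cause was not tested. Same-numbered replicates correlated in their deviations from the group means by 0.0792, 0.00548 and 0.0713, so the numbers were not taken to pair the libraries, and the replicate block is given as an alternative: it added calls of PRIM1 and POLD3 (edgeR adjusted p = 0.0493 and 0.0475) and gave 2790 lower and 2458 higher over all genes. With 3 libraries a group, the 95% intervals of the 15 genes without a call, which are not adjusted for the number of genes, give the sizes that these data allow.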
